A study of Homo sapiens with 21 samples.

Results

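Chromatin accessibility was compared between a pair of short hairpin RNAs (shRNAs) that silence the same gene, ARID1B. The comparison used 6 of the 21 ATAC-Seq libraries of the series, namely 3 labelled shARID1B.2 and 3 labelled shARID1B.3. The libraries were chosen by label alone, and every difference is given as shARID1B.3 minus shARID1B.2. All libraries came from SK-N-BE(2), an established MYCN-amplified neuroblastoma cell line, transduced with lentivirus that was packaged in HEK293T cells, a human embryonic kidney line. The other groups, of 3 libraries each, were Control (a non-silencing shRNA), shARID1A.2 and shARID1A.4 (ARID1A silencing), and shARID1A/B.2.3 and shARID1A/B.4.2 (ARID1A and ARID1B silencing together). ATAC-Seq was done 72 h after transduction. The design text calls the 3 libraries of a group biological triplicates, without saying whether each had its own transduction, so p-values measure the spread between these libraries. How far each hairpin lowered ARID1B was not analysed here, and the degree of silencing and the sequence of the hairpin cannot be told apart.

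ARID1A and ARID1B are alternative subunits of the BAF form of the mSWI/SNF chromatin remodelling complexes, which slide and evict nucleosomes and keep distal regulatory elements open. A complex holds either ARID1A or ARID1B, so silencing of 1 leaves complexes with the other. A shRNA is cut by Dicer into a short RNA that guides Argonaute to matching transcripts. Hairpins against the same gene share that target but not their own sequence, which is why a study uses more than 1 of them. ATAC-Seq reads mark DNA that the Tn5 transposase could reach, and a site with more reads is more open.

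Sequences of 5 sites with large differences are shown first, because 2 short motifs of transcription factors were found at unequal shares of the higher and the lower sites. Each is the central stretch of 300 bases of a site, forward strand, GRCh38. The homeodomain motif TAATTA is in capitals in the sites that were higher with shARID1B.3, which are chr7:24395732-24396031 (nearest gene NPY), chr22:29658319-29658618 (NF2), chr12:93882813-93883112 (RP11-887P2.5) and chr12:93252143-93252442 (LOC102724933). The AP-1 motif TGANTCA is in capitals in a site that was lower, chr3:7565560-7565859 (AC087859.1). Over all tested sites TAATTA was found in 7.87% and TGANTCA in 10.9% of central stretches. TAATTA was above that share in both directions, in 14.6% of higher and 11.04% of lower sites. The NPY stretch holds neither motif and is shown because its difference was among the largest. Other sites named below with large differences also lacked the motif that is shown here for their direction. These include CMAHP and LOC646588 among the rises and LINC00907, HERC2P10, ALG13 and PLCE1 among the falls. POPDC2, PRELID2 and LOC101927995 held it.
NPY: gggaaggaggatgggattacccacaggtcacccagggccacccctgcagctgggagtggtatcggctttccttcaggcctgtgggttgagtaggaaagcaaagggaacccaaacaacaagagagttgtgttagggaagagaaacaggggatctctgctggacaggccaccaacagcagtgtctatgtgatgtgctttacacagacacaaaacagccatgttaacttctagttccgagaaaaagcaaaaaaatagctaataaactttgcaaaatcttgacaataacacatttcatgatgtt
NF2: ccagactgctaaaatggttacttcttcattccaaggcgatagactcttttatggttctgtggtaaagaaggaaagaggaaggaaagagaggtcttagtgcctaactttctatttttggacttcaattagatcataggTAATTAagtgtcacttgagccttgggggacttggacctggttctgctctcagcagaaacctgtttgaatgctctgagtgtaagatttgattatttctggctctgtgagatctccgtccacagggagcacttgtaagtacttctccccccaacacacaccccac
RP11-887P2.5: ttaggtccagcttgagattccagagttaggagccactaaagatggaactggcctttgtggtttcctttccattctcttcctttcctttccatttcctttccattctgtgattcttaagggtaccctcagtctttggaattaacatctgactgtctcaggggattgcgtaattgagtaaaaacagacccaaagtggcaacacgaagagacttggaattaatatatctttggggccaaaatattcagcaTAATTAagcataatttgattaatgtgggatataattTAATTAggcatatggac
LOC102724933: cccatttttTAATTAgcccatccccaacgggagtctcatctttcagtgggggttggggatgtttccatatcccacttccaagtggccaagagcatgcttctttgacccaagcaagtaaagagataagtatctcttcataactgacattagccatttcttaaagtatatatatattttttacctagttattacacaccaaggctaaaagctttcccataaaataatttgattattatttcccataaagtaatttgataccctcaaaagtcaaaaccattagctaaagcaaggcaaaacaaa
AC087859.1: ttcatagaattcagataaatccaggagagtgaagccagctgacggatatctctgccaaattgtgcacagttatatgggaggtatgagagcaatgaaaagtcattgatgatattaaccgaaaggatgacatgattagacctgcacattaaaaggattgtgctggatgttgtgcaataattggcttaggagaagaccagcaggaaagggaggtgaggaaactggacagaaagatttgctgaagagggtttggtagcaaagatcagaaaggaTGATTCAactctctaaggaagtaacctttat

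The shARID1B.3 libraries were deeper than the shARID1B.2 libraries, with 36799314, 44472230 and 23104850 reads in sites against 21134048, 18001445 and 21634157. The other groups held 16140029 to 40953070, and 2 of the shARID1A/B.2.3 libraries were deep as well. Depth therefore moved with hairpin 3. With reads thinned to the shallowest total, 18440 sites differed (6985 higher, 11455 lower), against 25745 (10572 higher, 15173 lower) with all reads. The part of depth in the results was not tested beyond the alternative fits. The counts by direction, gene, list and chromosome are given also from a fit without the 4 deepest libraries, 2 of each of these deeper groups, which leaves 1 shARID1B.3 library that is assumed to vary like the others. With fewer libraries that fit made fewer calls, 0.775% of all sites higher and 1.98% lower, so median log2 differences are given where calls were few. Promoter sites took 20.9 to 21.5% of the reads with shARID1B.2 and 21.8 to 23.4% with shARID1B.3. The neuroblastoma label was checked at the promoters of HAND2 (45.3 to 59.8 CPM, read counts scaled to library size) and DBH (9.41 to 14.6 CPM), which were open in all 6 libraries. No tested site was nearest to SOX10, a gene of Schwann cells.

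Of 357029 sites with enough reads to test, 25745 differed between the hairpins, which is 7.21% of them (edgeR quasi-likelihood test, FDR below 0.01). Accessibility was higher with shARID1B.3 at 10572 sites (2.96%) and lower at 15173 (4.25%), so 58.9% of the differing sites were lower. In the fit without the deepest libraries, 2767 sites were higher and 7063 lower, a share of 71.9% lower. When libraries were scaled on promoter sites the median of all sites moved to -0.11 on the log2 scale and the counts to 6401 higher and 20066 lower, a share of 75.8%. With reads thinned to 1 depth the share was 62.1%. The balance of the directions thus varied with scaling and with the libraries kept, while a majority of lower sites was found under each. The median change was 1.78-fold at higher sites and 1.86-fold at lower sites. At least 2-fold differences were seen at 3618 higher (34.2%) and 5952 lower sites (39.2%), and at least 4-fold differences at 180 and 233. The 3 and 3 libraries did not overlap at 98.4% of the higher and 99.2% of the lower sites, against 12.8% and 13.9% of all tested sites that were separated in those directions.

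The differing sites lay nearest to 11388 of the 26739 genes with a tested site. Higher sites lay nearest to 6747 genes and lower sites to 7773, and 3132 genes had both. A gene could thus gain at one element and lose at another. For scale, the ARID1A hairpins, shARID1A.4 minus shARID1A.2, differed at 2.57% of sites (1.84% higher, 0.737% lower), and at 2.87% in the fit without the deepest libraries, none of which is theirs. When libraries were scaled on promoter sites, 1.15% of sites were higher and 1.16% lower between the ARID1A hairpins.

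Control was set beside both hairpins at the differing sites. The Control mean lay between the hairpin means at 76.7% of the higher sites and 65.7% of the lower sites. Sites chosen for a difference between the hairpins tend by that choice to leave any other group between them, so these shares are a description. At the higher sites the median level was 1.98 CPM with shARID1B.2, 2.49 CPM in Control and 3.59 CPM with shARID1B.3. At the lower sites it was 3.98, 3.41 and 2.12 CPM in the same order. Median log2 differences from Control at the higher sites were 0.51 for shARID1B.3 and -0.32 for shARID1B.2, and at the lower sites -0.60 and 0.29. Both comparisons share the Control libraries. Taken alone, shARID1B.3 differed from Control at 8.00% of sites (3.12% higher, 4.88% lower) and shARID1B.2 at 3.18% (1.34% higher, 1.84% lower). The order turned without the deepest libraries, with 2.95% for the single shARID1B.3 library left (0.540% higher, 2.41% lower) and 3.51% for shARID1B.2 (1.51% higher, 2.003% lower).

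Around the start of ARID1B no difference between its hairpins was called. The site over exon 1 of ARID1B at chr6:156776532-156780619 held 40.3, 43.4 and 40.6 CPM with shARID1B.2 and 47.6, 49.7 and 42.5 CPM with shARID1B.3. These levels overlap, and the log2 difference was 0.17 (SE 0.08, FDR 0.196). An shRNA acts on the transcript, so this site does not check the silencing. Among the 12 tested sites nearest to ARID1B, 2 were higher with shARID1B.3 and lay far upstream. The site at chr6:156585723-156586315, 191827 bases from the start, had 1.14, 1.35 and 1.01 CPM with shARID1B.2, 5.66, 6.62 and 4.999 CPM with shARID1B.3 and 1.92, 2.30 and 1.80 CPM in Control. The log2 difference was 2.33 (SE 0.18, FDR 1.79e-18), and all 18 other libraries lay below the 3 of shARID1B.3. At chr6:156617522-156619343 the levels were 2.98, 4.01 and 4.14 CPM against 7.40, 8.29 and 7.86 CPM, with 7.84, 7.15 and 7.86 CPM in Control, a log2 difference of 1.08 (SE 0.13, FDR 3.45e-10). Here it was shARID1B.2 that stood apart from Control.

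Of the 4 sites nearest to ARID1A, the paralogous subunit, 1 was called, at chr1:26677429-26677954. It held 0.332, 0.846 and 0.920 CPM with shARID1B.2 and 1.95, 1.37 and 1.39 CPM with shARID1B.3, a log2 difference of 1.18 (SE 0.28, FDR 0.00132). The call was lost with DESeq2, with reads thinned to 1 depth, without the deepest libraries (FDR 0.159), without shARID1B.2 replicate 1 and without shARID1B.3 replicate 1. The ARID1A promoter site gave a log2 difference of 0.24 (SE 0.13, FDR 0.243). Across the list of mSWI/SNF subunits 11 of 270 sites were higher and 11 lower, and 4 and 7 without the deepest libraries. With all libraries the shares of this list were 4.07% in each direction, near those over all tested sites, 2.96% higher and 4.25% lower. Of 122 sites nearest to SMARCA2, the BRM ATPase, 3 were higher. Of 19 nearest to DPF3, an accessory subunit of BAF, 3 were lower and 1 higher.

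Among sites of at least 1 CPM without overlap of the libraries, the 6 largest rises were intergenic, intronic or, at POPDC2, at the end of the neighbouring gene COX17. The site nearest to NPY, which encodes the sympathetic neuropeptide Y, lay at chr7:24395396-24396368, 111694 bases from the gene's start. It held 1.14, 0.846 and 0.966 CPM with shARID1B.2, 2.12, 2.63 and 1.84 CPM in Control and 7.26, 7.60 and 6.60 CPM with shARID1B.3. The difference was 7.23-fold, log2 2.85 (SE 0.19, FDR 2.86e-22), and shARID1B.3 was above every other library of the series. On the same chromosome, at chr7:25557574-25558318, the site nearest to LOC646588 held 0.568, 0.734 and 0.966 CPM against 5.22, 5.22 and 5.25 CPM, log2 2.78 (SE 0.21, FDR 9.91e-20). Its Control libraries, at 0.289, 0.699 and 0.281 CPM, were low like those of shARID1B.2. The largest of these rises, 8.90-fold, was in intron 2 of CMAHP, a pseudogene of a sialic acid hydroxylase, at chr6:25133570-25133999. It had 0.0947, 0.339 and 0.184 CPM with shARID1B.2 and 1.73, 1.93 and 1.72 CPM with shARID1B.3, log2 3.15 (SE 0.34, FDR 2.12e-12). Sites nearest to POPDC2, a cAMP-binding membrane protein of muscle (log2 2.92), NF2, the Hippo pathway regulator merlin (log2 2.74, in intron 7 of 16), and PRELID2 (log2 2.71) completed the list.

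The largest fall of all sites was in intron 7 of the non-coding gene LINC00907, at chr18:42644726-42645211. The levels were 2.32, 1.98 and 2.07 CPM with shARID1B.2, 0.223, 0.140 and 0.210 CPM with shARID1B.3 and 1.06, 0.575 and 0.521 CPM in Control, log2 -3.48 (SE 0.30, FDR 3.27e-16). Both hairpins departed from Control there, in opposite directions. In intron 1 of FAN1, a DNA repair nuclease, the site at chr15:30845439-30847533 (nearest start HERC2P10) held 7.29, 8.24 and 6.85 CPM with shARID1B.2 and 0.781, 0.885 and 0.966 CPM with shARID1B.3. Control held 0.818, 0.740 and 0.882 CPM, so only shARID1B.2 stood apart among these 3 groups, log2 -3.09 (SE 0.16, FDR 7.28e-28). HERC2P10 is a pseudogene of HERC2, and reads of near-identical copies could not be told apart by the deposited counts. The site 35550 bases from ALG13, an enzyme of protein N-glycosylation, held 6.87, 5.76 and 7.04 CPM with shARID1B.2, 1.20, 1.19 and 1.92 CPM in Control and 0.809, 0.792 and 0.756 CPM with shARID1B.3, log2 -3.05 (SE 0.18, FDR 7.46e-26). At LOC101927995 the fall was -3.09, in the GRM7 intron assigned to AC087859.1 it was -2.81, and in intron 1 of PLCE1, a phospholipase C, it was -2.77. PLCE1 differed in kind, since its Control libraries (2.50, 2.59 and 2.81 CPM) were above both hairpins (1.56, 2.09 and 1.66 CPM with shARID1B.2, 0.363, 0.186 and 0.210 CPM with shARID1B.3).

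**Figure D1:**
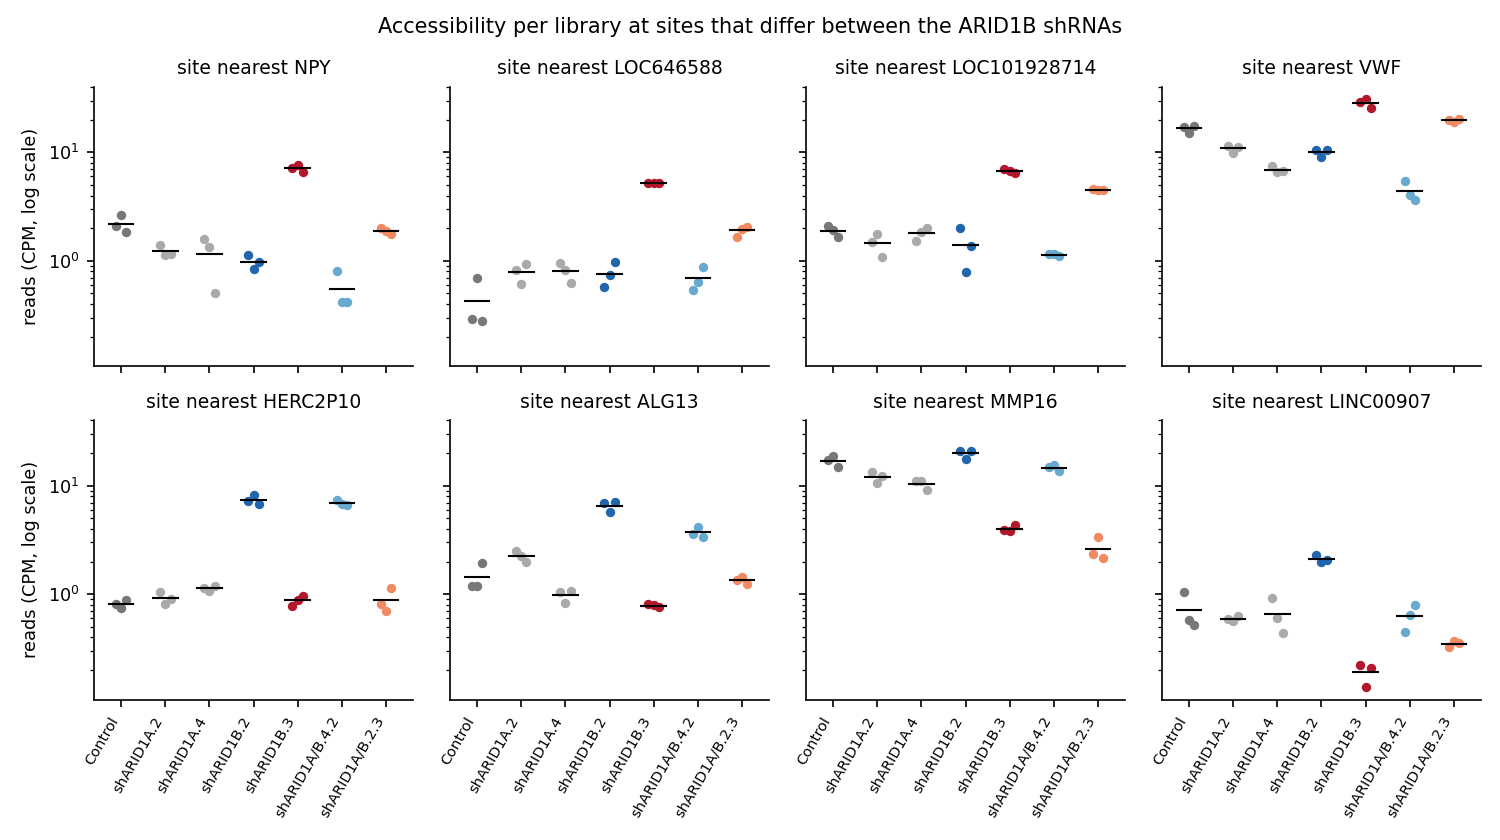
Accessibility in CPM (log axis) of 8 sites in each library, with 3 points per group and a bar at their mean. In the upper row the 3 shARID1B.3 libraries lie above those of shARID1B.2, as at NPY (6.60 to 7.60 CPM against 0.846 to 1.14 CPM), and in the lower row they lie below, as at HERC2P10 (0.781 to 0.966 CPM against 6.85 to 8.24 CPM).

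Where the sites lay differed with the direction. Introns held 50.3% of lower sites, 42.4% of higher sites and 43.1% of all tested sites, and intergenic DNA 44.5%, 45.1% and 48.7%. Median GC content was 42.9% at lower, 46.6% at higher and 46.9% at all tested sites. Differing sites were wider and more open than all tested sites, with medians of 1167 (lower) and 1034 bases (higher) against 788 bases, and of 2.78 and 2.50 CPM against 1.02 CPM. This did not hold for width at the sites with differences of at least 2-fold. Their medians were 731 (lower) and 585 bases (higher), and 1.36 and 1.04 CPM. Promoters made up 6.72% of higher sites, 1.76% of lower sites and 3.45% of all, with 710 promoter sites higher and 267 lower of 12310. This count changed between fits. With reads thinned to 1 depth, 504 promoter sites were higher and 214 lower. With the deepest libraries left out, 44 promoter sites were higher and 139 lower, and with offsets for GC content 387 were higher and 566 lower. The excess of higher promoters was therefore not stable. It was kept after thinning, while the direction turned without the deepest libraries and with GC offsets.

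Large promoter differences were few. The largest rise was in a promoter labelled SYBU (nearest start LOC100132813), which encodes a transport protein of neurons, with 3.60, 2.71 and 2.44 CPM against 9.32, 11.3 and 9.37 CPM, log2 1.78 (SE 0.14, FDR 4.30e-18). Control lay between them at 6.50, 6.57 and 4.77 CPM. LOC101929371 followed with log2 1.63. The promoter of LINC00595, a non-coding RNA, held 1.71, 3.16 and 1.79 CPM against 6.81, 5.96 and 6.34 CPM, log2 1.55 (SE 0.16, FDR 3.52e-13). The largest fall was in a promoter of ARHGEF2, a microtubule-bound activator of RhoA, at chr1:155983195-155984195. It held 10.7, 11.2 and 10.4 CPM with shARID1B.2, 2.15, 1.98 and 1.64 CPM with shARID1B.3 and 2.26, 1.31 and 1.84 CPM in Control, log2 -2.46 (SE 0.14, FDR 1.94e-26). The shARID1B.3 libraries overlapped Control there and shARID1B.2 was far above both. LOC102724895 (log2 -1.83) and GTDC1, a glycosyltransferase-like gene (log2 -1.68), were next, and GTDC1 lost its call without the deepest libraries (FDR 0.0153).

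Motifs were counted on both strands in the central 300 bases of every tested site, as a description of the letters and not of bound factors. The AP-1 motif TGANTCA, the element of JUN and FOS dimers, was in 24.7% of lower sites, 7.48% of higher sites and 10.9% of all tested sites. Of the 38940 sites with it 3744 were lower and 791 higher, so 82.6% of its called sites were lower, against 53.9% of called sites without it. This split was found under each scaling, depth and leave-one-out alternative, in which the share was 22.6 to 26.4% of lower and 7.005 to 8.72% of higher sites. It was also found among distal sites of 40 to 45% GC, with 24.9% of lower, 9.68% of higher and 13.02% of all.

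The E-box CATCTG, of the kind bound by TWIST and neurogenic helix-loop-helix factors, was in 32.5% of lower and 21.6% of higher sites, against 23.03% of all. The E-box CAGCTG showed little difference (18.7%, 17.2% and 17.6%). The GATA motif AGATAA was in 28.01% of lower, 17.5% of higher and 17.03% of all sites, and this gap narrowed with GC offsets, to 24.8% of lower and 21.1% of higher sites. It narrowed also without the deepest libraries, to 27.4% of lower and 22.3% of higher sites. Of the 28114 sites with the homeodomain motif TAATTA, 1540 were higher (5.48%) and 1675 lower (5.96%). The motif was in 14.6% of higher, 11.04% of lower and 7.87% of all sites, so both directions were above the share of all sites. Without the deepest libraries it was in 20.6% of higher and 9.92% of lower sites.

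The TEAD motif GGAATG (16.6% of higher, 16.8% of lower, 16.8% of all) and the RUNX motif TGTGGTT (4.67%, 6.05% and 5.40%) were near the background. The GC-rich SP/KLF motif GGGCGG was in 13.6% of higher, 5.14% of lower and 9.06% of all sites. With reads thinned to 1 depth it was in 13.9% of higher and 5.70% of lower sites. That difference was not seen without the deepest libraries (5.89% of higher, 6.24% of lower), and turned with GC offsets (7.04% and 9.38%). The CTCF core AGGGGGC, in 8.65% of higher, 3.54% of lower and 5.51% of all sites, kept its direction in both. The NRF1 core GCGCATG was in 1.12%, 0.633% and 1.09%.

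**Figure D2:**
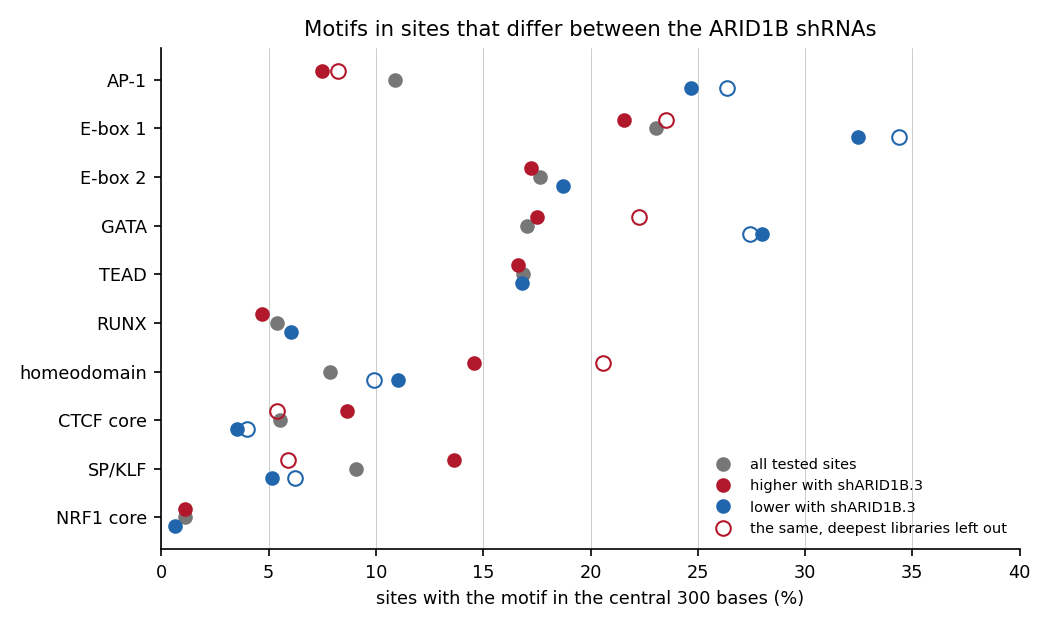
Share of sites (%) with each motif in the central 300 bases, for all tested sites (grey), sites higher (red) and lower (blue) with shARID1B.3. Open circles repeat the count without the deepest libraries, for the motifs where it was made, and E-box 1 and 2 are CATCTG and CAGCTG. AP-1 is the widest gap, 24.7% of lower against 7.48% of higher sites, while the SP/KLF gap is closed in the open circles.

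Some genes gathered many differing sites in 1 direction. The gene with the most lower sites was EMBP1, an embigin pseudogene beside the centromere of chromosome 1, with 55 of 379 sites lower and none higher. The summed level of its sites was 764, 684 and 756 CPM with shARID1B.2, 497, 512 and 560.5 CPM with shARID1B.3 and 488, 573 and 499.8 CPM in Control. The shARID1A/B.2.3 libraries (635, 738 and 656 CPM) did not follow shARID1B.3. Without the deepest libraries 1 site was called lower, while the median log2 difference over the 379 sites was -0.47, against -0.59 with all libraries. Reads from repeats beside a centromere may be assigned uncertainly, which was not tested.

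ETS1, a transcription factor of the ETS family, had 17 of 131 sites lower and 2 higher. Its sites summed to 466, 475 and 469.7 CPM with shARID1B.2, 371, 375 and 358 CPM with shARID1B.3 and 559.8, 554 and 557 CPM in Control, so both hairpins were below Control and shARID1B.3 more so. MIR218-2, a microRNA gene inside SLIT3, had 14 of 42 sites lower and none higher. The sums were 229.8, 229 and 230.3 CPM with shARID1B.2, 163, 162 and 151 CPM with shARID1B.3 and 224, 204 and 219 CPM in Control, and here shARID1B.2 stayed near Control. FOXP1, a forkhead factor, had 15 of 129 sites lower and 2 higher. In the fit without the deepest libraries, 11 ETS1, 6 MIR218-2 and 3 FOXP1 sites were lower. The median log2 difference over all sites of the gene was -0.17 with all libraries and -0.19 without the deepest at ETS1, -0.33 and -0.35 at MIR218-2, and -0.14 and -0.18 at FOXP1.

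On the side of the higher sites, TPBGL, a leucine-rich repeat gene, had 8 of 18 sites higher and none lower, and FAM160A1 had 8 of 25 higher and 1 lower. FAM160A1 sites summed to 94.5, 96.6 and 93.8 CPM with shARID1B.2, 114, 106 and 110.4 CPM in Control and 134, 134 and 126 CPM with shARID1B.3, without overlap of the groups. With the deepest libraries left out, 5 FAM160A1 and 4 TPBGL sites were higher. LINC00221 had 9 of 43 sites higher and none lower, and AGAP1-IT1 9 of 61 higher and 1 lower, and each had 1 higher site without the deepest libraries. The median log2 difference over LINC00221 sites was 0.53 in both fits, while at AGAP1-IT1 it was 0.21 with all libraries and 0.13 without the deepest. At TPBGL these medians were 0.65 and 0.48, and at FAM160A1 0.39 and 0.37. Over all tested sites the shares were 2.96% higher and 4.25% lower.

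**Figure D3:**
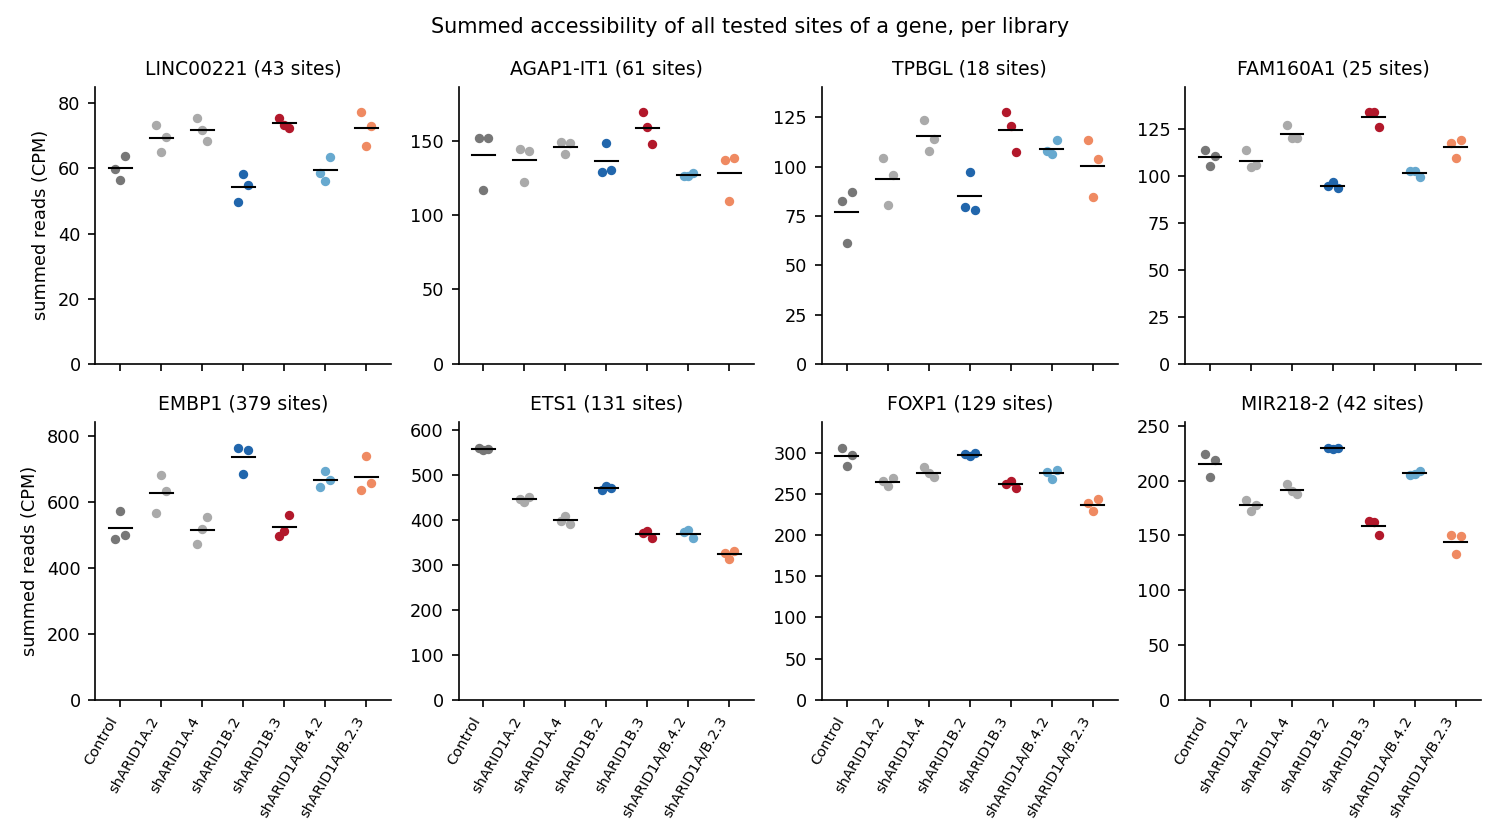
Summed CPM of all tested sites nearest to each of 8 genes, per library, with 3 points per group, a bar at their mean and an axis from 0. The shARID1B.3 points are above shARID1B.2 at FAM160A1 (126 to 134 CPM against 93.8 to 96.6 CPM) and below at MIR218-2 (151 to 163 CPM against 229 to 230.3 CPM), and at EMBP1 shARID1B.2 (684 to 764 CPM) overlaps the shARID1A/B.2.3 (635 to 738 CPM) and shARID1A/B.4.2 libraries (644 to 692 CPM).

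Differing sites were spread over the genome unevenly. Of the chromosomes, 18 had the largest share of lower sites, 11.3% (267 of 2356), followed by 22 with 8.54% and 15 with 8.29%. Chromosome 18 also had 5.39% higher sites, against 2.96% over all tested sites. Chromosome X had the largest share of higher sites, 6.11%, and 7.14% lower. Median log2 differences were 0.03 on chromosome 18, -0.02 on 22, -0.07 on 15 and 0.09 on X. Without the deepest libraries 115 sites of chromosome 18, 127 of chromosome 22 (226 with all) and 285 of chromosome 15 (560 with all) were lower. In 579 windows of 5 Mb with at least 100 sites, the median share was 4.26% lower and 2.92% higher. The windows named here were chosen after their values were seen. The highest share of lower sites was on chromosome 15 between 35 and 40 Mb, with 47 of 204 sites (23.04%) nearest to 18 genes, and 20 sites without the deepest libraries. Chromosome 17 between 10 and 15 Mb followed with 24 sites, 19.5% of those tested there, and 10 without the deepest libraries. The highest share of higher sites was at the end of chromosome 5, with 22 of 144 (15.3%), and 1 was called higher there without the deepest libraries. The median log2 difference in that window was 0.31 with all libraries and 0.17 without the deepest. Sites within 5 Mb of a chromosome end were higher in 4.52% and lower in 3.04% of cases, against 2.84% and 4.35% farther away. Without the deepest libraries 0.665% were higher and 1.52% lower near the ends, against 0.785% and 2.02% farther away, so lower sites stayed less frequent near the ends and higher sites were no longer more frequent.

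Gene lists were read against the shares over all tested sites, 2.96% higher and 4.25% lower. Median log2 differences over all sites of a list were small, from -0.05 to 0.08 over the 16 lists, and from -0.24 to 0.03 without the deepest libraries. Genes of adrenergic identity, the neuronal state of neuroblastoma, had 20 of 401 sites higher (4.99%) and 25 lower (6.23%), and 7 and 12 without the deepest libraries. PHOX2A, a determinant of sympathetic neurons, had 4 of 14 sites higher and none lower, and EYA1, a transcriptional cofactor and phosphatase, had 7 of 54 lower and 1 higher. In intron 6 of EYA1 the most significant site held 18.0, 16.3 and 17.9 CPM with shARID1B.2, 11.9, 10.6 and 9.18 CPM in Control and 7.59, 7.15 and 6.93 CPM with shARID1B.3, log2 -1.26 (SE 0.11, FDR 7.77e-17). Genes of mesenchymal identity had 8 of 297 sites higher (2.69%) and 12 lower (4.04%), both near the background, and 3 and 8 without the deepest libraries. SNAI2, a repressor of epithelial genes, had 2 of 40 sites lower, the stronger with log2 -1.72 (SE 0.14, FDR 9.29e-18).

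The integrin and cadherin lists were chosen by the study on these samples and are no independent evidence of a direction. Integrins, the receptors for extracellular matrix, had 23 of 265 sites lower (8.68%) and 7 higher (2.64%), and 12 lower and 4 higher without the deepest libraries. ITGB6 had 5 of 16 sites lower, ITGA11, ITGA2 and ITGAV 3 each, and ITGA9 3 lower and 1 higher of 12. The site 5240 bases from ITGB6 held 11.98, 10.4 and 10.4 CPM with shARID1B.2, 7.70, 8.05 and 7.74 CPM in Control and 3.49, 3.87 and 4.28 CPM with shARID1B.3, log2 -1.50 (SE 0.12, FDR 6.87e-18). ITGA4 went the other way, with 2 of 35 sites higher. Cadherins and mesenchymal regulators had 12 of 306 sites higher and 14 lower, and 8 and 7 without the deepest libraries, with CDH6 4 higher and 1 lower, and CDH11 2 higher and 5 lower.

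Genes of the AP-1 factors, whose motif marked the lower sites, had 8 of 55 sites lower (14.5%) and 1 higher, spread over 7 genes with lower sites (ATF3 with 2, and BATF, FOS, FOSB, FOSL2, JDP2 and JUN with 1 each). The median log2 difference over the 55 sites was 0.02 with all libraries and -0.10 without the deepest, so the list as a whole was not clearly lower. The site 28699 bases from JUN held 2.89, 3.95 and 3.96 CPM with shARID1B.2, 1.88, 1.77 and 2.08 CPM in Control and 1.06, 0.699 and 0.714 CPM with shARID1B.3, log2 -2.11 (SE 0.21, FDR 1.07e-13). In the fit without the deepest libraries, 5 AP-1 factor sites were lower. JUND was the exception, with its single site higher. TEAD and YAP genes had 11 of 247 sites higher and 9 lower, and 1 higher and 7 lower without the deepest libraries. The site nearest to ANKRD1, a YAP target, fell by 1.44 on the log2 scale (SE 0.19, FDR 6.36e-09).

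Double-stranded RNA can raise an interferon response, and genes of that response had 10 of 204 sites higher (4.90%) and 14 lower (6.86%). Among the lower ones were 2 of 4 sites of IFIT2, 3 of 16 of ISG20 and 2 of 7 of OAS1, which are interferon-induced antiviral genes. The site nearest to IFIT2 held 6.30, 6.04 and 6.72 CPM with shARID1B.2, 5.63, 4.56 and 5.21 CPM in Control and 2.15, 2.07 and 1.72 CPM with shARID1B.3, log2 -1.66 (SE 0.15, FDR 1.23e-15). On the other side TLR3, a receptor for double-stranded RNA, had 2 of 20 sites higher, and ISG15, IFI6, STAT2, BST2, IFI44L and IFIT5 1 higher each. With the deepest libraries left out, 1 site of the list was higher and 7 lower. The RNA interference machinery that processes an shRNA had 2 of 112 sites higher and 5 lower, and 3, each lower, without the deepest libraries. DROSHA, the nuclear microRNA processing enzyme, had 3 of 53 sites lower, the strongest with log2 -0.87 (SE 0.14, FDR 9.20e-07), while AGO2 (19 sites), AGO1, AGO4, DGCR8, DICER1 and XPO5 had no called site by edgeR.

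Stress and unfolded protein response genes had 9 of 53 sites lower (16.98%) and 4 higher, and 1 site, lower, without the deepest libraries. The median log2 difference of the list was -0.05 with all libraries and -0.24 without the deepest. HMOX1, heme oxygenase, had 3 of 4 sites lower and TRIB3, a target of ATF4, 2 of 2. The promoter of HSPA1B, an inducible heat shock protein, held 29.1, 29.9 and 28.1 CPM against 44.3, 47.04 and 37.5 CPM, log2 0.57 (SE 0.09, FDR 8.87e-07), a call lost without the deepest libraries (FDR 0.0535). Its near-identical copy HSPA1A was called higher too, and reads of the copies may be split uncertainly. Genes of G1 cell cycle control had 6 of 133 sites higher and 2 lower, and 2 and 1 without the deepest libraries. The site 29744 bases from CCNE1, cyclin E1, held 2.70, 1.41 and 2.25 CPM with shARID1B.2 and 6.81, 6.20 and 5.92 CPM with shARID1B.3, log2 1.55 (SE 0.15, FDR 1.12e-13). Targets of p53 had 6 of 274 sites higher and 5 lower, and 3, each lower, without the deepest libraries, with a site in intron 7 of MDM2, the p53 ubiquitin ligase, at log2 0.73 (SE 0.13, FDR 4.85e-06) and lost without the deepest libraries (FDR 0.0150).

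Axon guidance, the largest list, had 61 of 1815 sites higher (3.36%) and 90 lower (4.96%), near the background, and 17 and 37 without the deepest libraries. ROBO1, a receptor for SLIT proteins, had 11 of 216 sites lower and 3 higher, SLIT2 6 of 167 lower and 1 higher, and UNC5A, a netrin receptor, 5 of 15 higher and none lower. The site 50061 bases from SLIT3 held 11.6, 11.5 and 11.1 CPM with shARID1B.2, 12.4, 10.7 and 10.2 CPM in Control and 4.86, 3.82 and 3.57 CPM with shARID1B.3, log2 -1.47 (SE 0.12, FDR 2.67e-17).

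Genes that mark other cell types also held differing sites. Endothelial markers had 9 of 179 sites higher and 3 lower, and 3 and 1 without the deepest libraries. In intron 6 of VWF, von Willebrand factor, a site held 10.5, 9.14 and 10.5 CPM with shARID1B.2, 17.3, 15.2 and 17.4 CPM in Control and 29.2, 30.8 and 25.9 CPM with shARID1B.3, log2 1.51 (SE 0.10, FDR 3.17e-21). Of PECAM1, CDH5 and VWF, only CDH5, which is also in the cadherin list, had a promoter site, at 1.61 to 1.71 CPM with shARID1B.2 and 1.76 to 1.87 CPM with shARID1B.3. Markers of embryonic kidney, the origin of the packaging cells, had 7 of 83 sites lower and 4 higher, and 5 and 0 without the deepest libraries. All 7 lower sites were nearest to WT1, of 35, and 3 of the higher ones to SIX2, of 19. A site 125365 bases from WT1 held 12.4, 10.9 and 11.6 CPM with shARID1B.2, 7.99, 7.31 and 7.14 CPM in Control and 3.40, 3.54 and 3.40 CPM with shARID1B.3, log2 -1.75 (SE 0.12, FDR 2.30e-21). The PAX2 promoter was open at 5.68 to 9.09 CPM with shARID1B.2 and 7.23 to 9.26 CPM with shARID1B.3, and PAX8 and LHX1 had no promoter site. The part of other cell types in the results was not tested. Schwann cell markers had 11 sites, none called by edgeR or DESeq2, with 3 at an unadjusted p under 0.05.

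**Figure D4:**
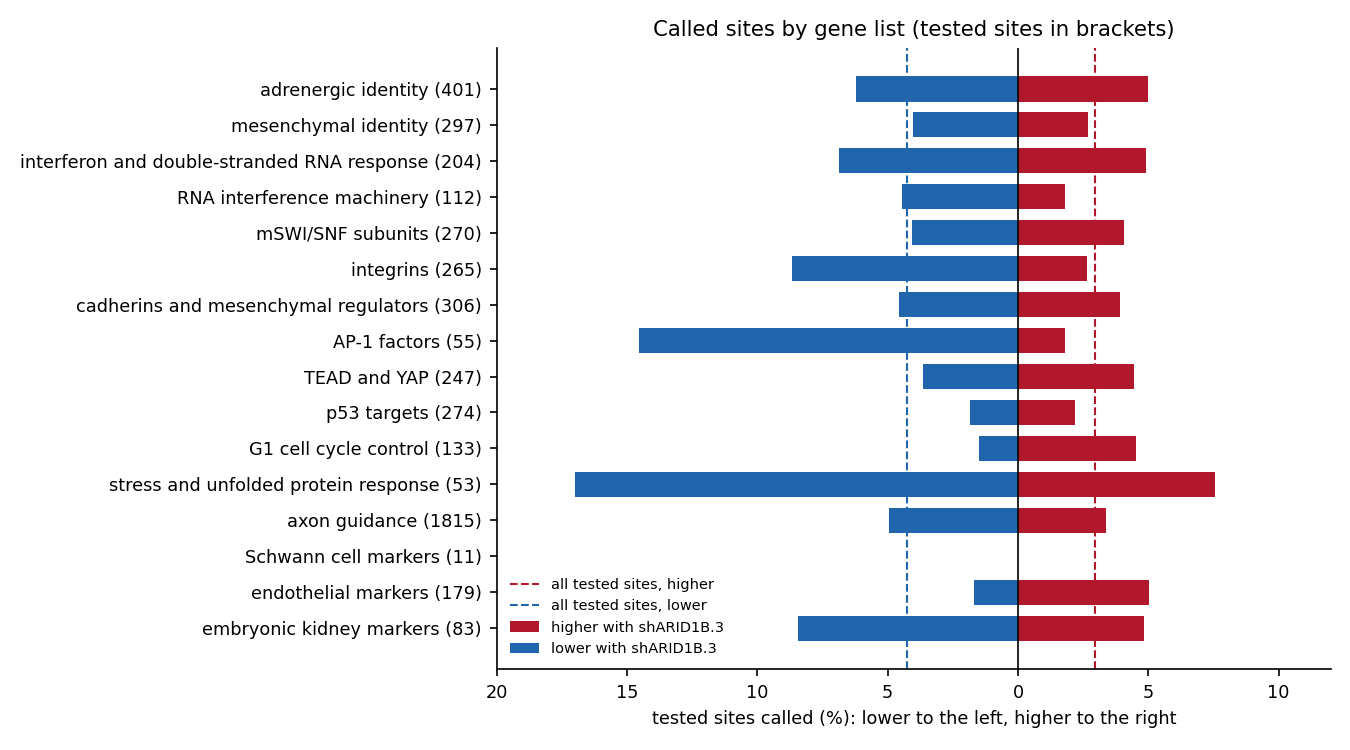
Share of the tested sites of each gene list (%) that were called higher (red, to the right of 0) and lower (blue, to the left) with shARID1B.3, with dashed lines at the shares over all tested sites (2.96% and 4.25%). Stress (16.98%), AP-1 factor (14.5%) and integrin (8.68%) sites reach farthest past the lower line, on 53, 55 and 265 sites.

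The same pair of ARID1B hairpins was also present with ARID1A silencing, in 12 libraries that the comparison above did not use. There the difference was taken as shARID1A/B.2.3 minus shARID1A.2, less shARID1A/B.4.2 minus shARID1A.4. This rests on reading the numbers in the combined labels as the ARID1A and then the ARID1B shRNA, which the labels do not spell out. This difference was called at 1.16% of all sites (0.453% higher, 0.703% lower, or 0.59% and 0.562% with scaling on promoter sites). Of the sites higher with shARID1B.3 alone, 982 (9.29%) were called higher there too, and they made up 60.7% of the 1619 sites called higher there. Of the lower sites, 2120 (13.97%) were called lower there, and they made up 84.5% of 2510. Calls in the opposite direction were 9 (0.0593%) among the lower sites. Among the higher sites there were 0 by edgeR and 0 by DESeq2, with 41 at an unadjusted p under 0.05.

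Most differences kept their sign beyond these calls. The sign was the same at 84.9% of higher and 87.3% of lower sites, while 50.8% of all tested sites were above and 49.2% below 0 in the ARID1A-silenced libraries. The median log2 difference there was 0.37 for the higher and -0.50 for the lower sites, against 0.83 and -0.89 without ARID1A silencing. The deep libraries carried hairpin 3 in both settings. With reads thinned to 1 depth, 9.62% of 6985 higher and 11.9% of 11455 lower sites were called again. The sign was then the same at 86.6% and 87.6%. The part of depth was not tested beyond the alternative fits. Without the deepest libraries 12.8% of 2767 higher and 10.7% of 7063 lower sites were called again, with the same sign at 90.2% and 90.0%. The direct difference, shARID1A/B.2.3 minus shARID1A/B.4.2, in which the ARID1A hairpin changes as well, was called at 5.22% of sites (1.43% higher, 3.79% lower). The balance of its directions turned when libraries were scaled on promoter sites, with 3.31% higher and 1.8% lower.

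**Figure D5:**
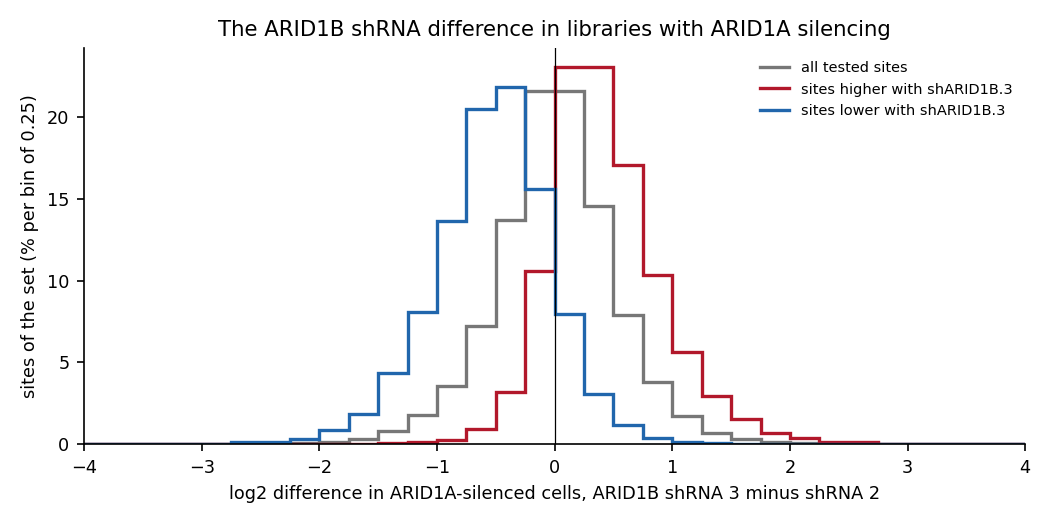
Distribution of the log2 difference between the ARID1B hairpins in ARID1A-silenced cells, in % of each set of sites per bin of 0.25. The sites higher with shARID1B.3 alone (red) are shifted to the right (median 0.37) and the lower sites (blue) to the left (median -0.50) of all tested sites (grey).

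The sites below had the largest differences among those called in both settings. In an intron of CRADD, a death domain adaptor, the site at chr12:93882695-93883231 (nearest start RP11-887P2.5) held 0.568, 0.621 and 1.20 CPM with shARID1B.2 and 5.36, 5.20 and 4.83 CPM with shARID1B.3. The log2 differences were 2.66 (SE 0.20, FDR 1.48e-19) and, with ARID1A silencing, 2.55 (SE 0.39, FDR 2.27e-06). In the second setting the direct levels were close to each other, 0.448, 0.506 and 0.417 CPM in shARID1A/B.4.2 and 0.985, 0.651 and 0.879 CPM in shARID1A/B.2.3, while the groups with ARID1A silencing alone stood further apart, at 2.29, 2.13 and 1.88 CPM with shARID1A.4 and 0.498, 0.772 and 0.629 CPM with shARID1A.2. The direct levels did differ at LOC101928714, at chr6:80646813-80647850, where shARID1A/B.2.3 held 4.63, 4.53 and 4.48 CPM against 1.16, 1.15 and 1.11 CPM in shARID1A/B.4.2 and both log2 differences were 2.26. LOC102724933 (2.41 and 2.30) and a site 216063 bases from GRIA1, an AMPA receptor subunit (2.53 and 2.25), were the other rises.

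Among the falls, the site 388562 bases from MMP16, a membrane-bound matrix metalloproteinase, held 21.03, 17.7 and 20.9 CPM with shARID1B.2, 17.3, 18.8 and 14.95 CPM in Control and 3.93, 3.80 and 4.33 CPM with shARID1B.3. With ARID1A silencing it held 14.8, 15.7 and 13.6 CPM in shARID1A/B.4.2 and 2.36, 3.37 and 2.15 CPM in shARID1A/B.2.3. All 6 libraries with ARID1B shRNA 3 were thus the lowest of the series, with log2 -2.32 (SE 0.12, FDR 2.30e-28) and -2.65 (SE 0.18, FDR 1.30e-20). The site in the last exon of THUMPD1, a cofactor of tRNA acetylation, had 3.74, 3.39 and 2.62 CPM with shARID1B.2 against 0.698, 0.536 and 0.588 CPM with shARID1B.3 and 0.289, 0.247 and 0.321 CPM in Control, with log2 -2.41 and -2.79. The FAN1 site (HERC2P10) was at 7.39, 6.81 and 6.68 CPM in shARID1A/B.4.2 and 0.821, 0.697 and 1.14 CPM in shARID1A/B.2.3, with log2 -3.09 and -2.73, and ALG13 followed with -3.05 and -2.65.

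A few sites followed a hairpin number so closely that all 6 libraries of the groups carrying it lay on 1 side of the other 15, with group means at least 2-fold apart. This count was made after the data were seen and is a description. For the ARID1B shRNAs the rule itself sets shARID1B.3 apart from shARID1B.2, so their calls in the comparison of hairpins follow largely from it. ARID1B shRNA 2 had 59 sites at which its libraries were the highest, of which 56 were called lower in the comparison of hairpins, and 2 at which they were the lowest. ARID1B shRNA 3 had 24 highest, all 24 called higher, and 45 lowest, of which 44 were called lower. The AP-1 motif was in 18 of those 45 sites and in 28.8% of the 59. For ARID1A shRNA 2 the counts were 3 and 37, and for ARID1A shRNA 4 they were 1 and 9.

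The most open of the 59 sites was in intron 7 of CCDC93, an endosomal sorting protein, at chr2:117980072-117981541. It held 15.9, 13.99 and 15.5 CPM with shARID1B.2 and 14.4, 13.3 and 13.4 CPM in shARID1A/B.4.2, while the other 15 libraries held 2.47 to 6.66 CPM. The log2 difference of the hairpins was -2.53 (FDR 6.09e-29). A site nearest to PYGB, glycogen phosphorylase, showed the same order, with 13.5, 13.3 and 12.9 CPM, 11.6, 12.6 and 12.6 CPM and 3.51 to 6.18 CPM. Here the libraries of shARID1B.3 were at or below the level of Control, and those of shARID1B.2 well above it.

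The most open of the 24 sites for ARID1B shRNA 3 was nearest to COX7A2, a subunit of cytochrome c oxidase, at chr6:75233095-75234812. It held 11.7, 13.5 and 12.9 CPM with shARID1B.3 and 12.2, 13.01 and 10.8 CPM in shARID1A/B.2.3, against 3.43 to 6.15 CPM in the other 15 libraries, log2 1.54 (FDR 1.69e-18). Among the 45 lowest, the site nearest to LINC00639 at chr14:38700986-38702060 held 4.35, 4.43 and 4.37 CPM and 5.32, 6.32 and 5.54 CPM against 13.9 to 22.5 CPM, log2 -2.15 (FDR 1.08e-28). In intron 4 of RIMS1, a scaffold of the synaptic active zone, the levels were 5.64, 6.03 and 5.42 CPM and 4.92, 4.60 and 5.14 CPM against 11.1 to 19.6 CPM. Both were open in Control and in both groups with hairpin 2, and less open in the 6 libraries with hairpin 3.

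The test of the difference between the settings called 361 sites (0.101% of all), termed here dependence on ARID1A silencing. Each ARID1B hairpin was combined with a different ARID1A hairpin. Silencing of ARID1A and the ARID1A hairpin used can therefore not be told apart in this test. The ARID1B hairpin difference was higher without ARID1A silencing at 41 sites (0.0115%) and lower at 320 (0.0896%). At the 320 sites the median log2 difference was -0.81 without and 0.46 with ARID1A silencing, and 224 of them were among the lower sites of the hairpin comparison. Of all sites that differed between the hairpins, 1.04% passed this test. The count was 169 with reads thinned to 1 depth and 23 without the deepest libraries.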

How the data were processed

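ATAC-Seq was analysed in 21 libraries of SK-N-BE(2) cells, 7 groups of 3. The authors aligned the reads to GRCh38 and deposited raw read counts per consensus site, with HOMER annotation. The aligner, peak caller and read filters are not named in any source used. The authors' DESeq2 fold changes and p-values for their own comparisons and their columns named pseudo were not used. Counts of 367900 sites were joined by site. Sites passing filterByExpr (edgeR 4.0.16, R 4.3.3, minimum count 10) were scaled by TMM and fitted in 1 quasi-likelihood model of all groups, and 10871 sites were left out. Calls were made at a Benjamini-Hochberg FDR below 0.01. Levels are CPM on TMM-scaled library sizes. Alternatives comprised DESeq2 1.42.0, other scalings, offsets for GC content, thinning of reads, FDR and fold thresholds, a replicate block, the compared groups alone and leaving out libraries. Leaving out the deepest libraries, and the block within the compared groups, were added after the data were seen. Leave-one-out fits kept the tested sites and trended dispersion. Counting precision follows from 16140029 to 44472230 reads per library. The common coefficient of variation was 0.0817, and the fit was tested on simulated data. Replicate pairs differed by more than sampling noise (chi-square per degree of freedom 1.22 to 1.45). Named sites were called, had a mean of at least 1 CPM and were without overlap of libraries, with 1 site per gene. They comprise the 6 largest rises and falls, the 3 largest promoter rises and falls, the 4 largest recurring in each direction, the 4 genes with most sites per direction (at least 80% of their called sites), the smallest p of each list, and ARID1A and ARID1B. Some items are not reported here. Members and lists were chosen with earlier results of these data known.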

Additional observations from a re-analysis of the deposited data

Results flagged for a closer look

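The difference between the ARID1B hairpins was not the same without and with ARID1A silencing at 361 sites, by the test between the settings (edgeR, FDR below 0.01). The ARID1A hairpin changed along with the ARID1B hairpin in that test. Among the sites named above, the test gave a log2 value of -2.84 at LINC00907 (FDR 0.00855), -1.47 at ARHGEF2 (FDR 0.00128) and 1.15 at the ARID1B site at chr6:156617522-156619343 (FDR 0.00880), each as the hairpin difference without ARID1A silencing less the difference with it. At LINC00907 the shARID1A/B.4.2 libraries held 0.448, 0.644 and 0.788 CPM, below every library of shARID1B.2. At ARHGEF2 they held 12.99, 12.98 and 12.5 CPM, and the shARID1A.4 libraries were open as well, at 6.09, 5.31 and 6.07 CPM against 1.49, 1.46 and 1.75 CPM with shARID1A.2. At the ARID1B site shARID1A/B.2.3 held 4.73, 3.81 and 4.13 CPM and shARID1A/B.4.2 3.54, 3.73 and 3.76 CPM. The cause of these differences was not tested.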

How the results depend on the processing

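Of 53 named site results under 950 combinations with an alternative, none reversed, 8 lost their call and 3 gained one. The cause of changes in the counts below was not tested beyond the libraries and thresholds removed. In the fit without the deepest libraries, 9830 sites differed (2767 higher, 7063 lower) and 1666 differed in ARID1A-silenced cells, 4960 between the combinations, 10520 for shARID1B.3 against Control and 23 depended on ARID1A silencing. At FDR below 0.05 the counts were 42013, 18917 and 23096, and for 2-fold differences or more they were 9570, 3618 and 5952. Higher sites numbered 6401 when scaled on promoters, 6833 with DESeq2 and 6985 after thinning. Sites that depended on ARID1A silencing numbered 1218 when scaled on promoters and 795 with offsets by abundance.

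Leaving out 1 library gave 17721 to 22858 differing sites, 6289 to 10093 higher and 11338 to 12765 lower. The higher count fell by over 1.5 times without shARID1B.2 replicate 1 (6289), shARID1B.2 replicate 3 (6383) and shARID1B.3 replicate 2 (6670). The range was 2960 to 3992 in ARID1A-silenced cells, 175 to 344 for dependence on ARID1A silencing (over 1.5 times fewer without shARID1A.2 replicate 3, 226, shARID1A.4 replicates 1, 205, and 2, 201, shARID1B.2 replicates 1, 206, and 3, 194, shARID1B.3 replicate 1, 218, and shARID1A/B.4.2 replicates 1, 190, 2, 197, and 3, 175), 11823 (without shARID1A/B.2.3 replicate 2) to 17672 between the combinations, 19975 to 26511 for shARID1B.3 against Control, 7220 (without shARID1B.2 replicate 3) to 9239 for shARID1B.2 against Control and 5750 (without shARID1A.4 replicate 1) to 8149 between the ARID1A hairpins.

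Same-numbered shARID1B.2 and shARID1B.3 libraries did not deviate together (r of -0.17, -0.02 and 0.04 across sites), so the numbers were not taken as pairs. A replicate block gave 27954 sites (11945 higher, 16009 lower), and 27346 with the compared groups alone.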
